A study of Mus musculus with 16 samples.

Results

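Cuprizone (CPZ) is a copper chelator that kills mature oligodendrocytes, the myelin-forming cells of the brain, when it is mixed into the chow of mice. The genes described here are 9 targets of p53 and mediators of apoptosis, namely Cdkn1a, Ccng1, Mdm2, Trp53inp1, Bbc3, Pmaip1, Bcl2l11, Bax and Fas. They were chosen by name out of 18749 named genes on the arrays, with earlier results of these data known. The shares of all genes set beside their counts are therefore a description. The 9 genes were read by 14 of the 41174 probes, since 5 of them (Bcl2l11, Trp53inp1, Ccng1, Mdm2 and Fas) had 2 probes each. RNA came from the corpus callosum (CC), a white matter tract rich in myelin, of male C57BL/6 mice that were 7 to 8 weeks old when included, and was hybridised to 16 single-colour Agilent arrays. The untreated group (3 arrays) ate normal chow and was matched in age and sex to the 4-week group. The other groups were 2 weeks of CPZ (3 arrays), 4 weeks of CPZ (4 arrays) and 4 weeks of CPZ followed by regular diet, the remyelinating group (6 arrays). The dose of CPZ is 0.2% of the chow in the methods and 0.2 to 0.4% in the labels, and the mice carried no transgene. By the methods the regular-diet group mixes mice taken 2 days and 2 weeks after CPZ was stopped, and the labels do not tell these apart. The labels do not say that each array is a separate mouse, so p-values measure the spread between these arrays.

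p53 is a transcription factor that is stabilised by DNA damage and other cell stress. It switches on genes that stop the cell cycle (Cdkn1a), genes that feed back on p53 itself (Mdm2, Ccng1, Trp53inp1) and genes that start cell death. Death through the mitochondria is set by the BCL-2 family, in which BH3-only proteins (Bbc3, Pmaip1 and Bcl2l11, also called PUMA, NOXA and BIM) block pro-survival members or activate the pore-forming effector Bax. Fas is a death receptor on the cell surface that starts caspase activation from outside. Bcl2l11 is controlled mainly by other transcription factors, and is included as an apoptosis gene.

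p53 binds DNA as a tetramer, on a pair of half-sites of 10 bases each with a spacer of up to 13 bases. RefSeq windows of GRCm38.p6, from 250 bases before to 50 bases after each annotated start, were found for 7 of the 9 genes (11 windows). They were searched for the p53 response element half-site consensus, in order 3 purines, C, 2 bases that are each A or T, G and 3 pyrimidines, which reads the same on both strands. In pairs with mismatches the central C and G of each half-site were kept. An exact half-site lay in 8.36% of all 32851 windows, and a pair with 0 mismatches in 0.0731%, with at most 1 mismatch in 0.627% and with at most 2 mismatches in 4.09%. Of the genes searched, 4 had an exact half-site. Cdkn1a had an exact pair at -73 and -51 from one annotated start, with a spacer of 12 bases. The bases right after its second half-site (tgacatgttc) match the half-site with 1 mismatch. The window of another annotated start of Cdkn1a (chr17:29093519-29093818) held no exact half-site, and its best pair had 5 mismatches. Ccng1 had a pair with 1 mismatch, its half-sites adjacent, from -195. Bax had a pair with 2 mismatches, 1 base apart, from -201. Mdm2 had a single exact half-site from -186. The upstream stretches that hold them are printed 5′ to 3′ on the strand of the gene, with the half-sites in capitals. They are shown because these 4 genes had an exact half-site. Cdkn1a and Bax, both among them, had the greatest and the smallest difference of the 9 genes after 2 weeks of CPZ. The Cdkn1a stretch is chr17:29090891-29090952, plus strand.
Cdkn1a: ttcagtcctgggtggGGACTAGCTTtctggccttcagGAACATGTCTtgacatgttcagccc
The Ccng1 stretch is chr11:40755447-40755496, minus strand.
Ccng1: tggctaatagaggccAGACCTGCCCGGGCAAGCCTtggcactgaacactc
The Mdm2 stretch is chr10:117710920-117710959, minus strand.
Mdm2: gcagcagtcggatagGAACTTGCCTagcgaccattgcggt
The Bax stretch is chr7:45467064-45467114, minus strand.
Bax: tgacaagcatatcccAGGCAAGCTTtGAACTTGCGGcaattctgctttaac
The windows of Bbc3, Bcl2l11 and Fas held no exact half-site, which says only that these letters are not in those windows. Trp53inp1 and Pmaip1 were not among the windows. A match to the letters is a description and shows neither binding nor a cause.

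All values are log2 signals relative to the 75th percentile of the array, so a value of 0 is the level below which 75% of the probes of that array lie. Every gene is given by its brightest tested probe, and these 9 probes were well above background on all 16 arrays, so the filter on dim probes selected none of them. The second probe of Fas was not well above background on any of the arrays and was not tested, which left 13 tested probes. A gene was called where limma gave a Benjamini-Hochberg adjusted p under 0.05 over all tested probes and at least a 2-fold difference. The number of arrays limits the precision.

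The group of each array was taken from the column of the authors' log2 table that holds its values. For 14 of the 16 columns the matching scanner file is recorded under another sample, and the 2 assignments cannot both be right. Under the recorded assignment no gene of the array was called at either CPZ time, none of the 9 genes was higher at an unadjusted p under 0.05, and 8 of the 9 were below untreated at 2 weeks, Cdkn1a by 1.66 on the log2 scale. Every value given here rests on the assignment by columns.

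None of the 9 genes was called after 2 weeks of CPZ, where 0.211% of the 20366 genes tested were called (43 genes). All 9 were higher than in untreated CC, with a median log2 difference of 0.91 against 0.05 over all genes tested. At an unadjusted p under 0.05, 6 of the 9 were higher (Cdkn1a, Bbc3, Ccng1, Fas, Pmaip1 and Mdm2) and none was lower, against 4.48% of all genes that were higher and 5.04% that were lower. The 2-week and untreated arrays did not overlap, with every 2-week array above every untreated array, for 5 of the 9 (all of those but Fas), against 8.12% of all genes. The count of 6 fell to 3 without untreated replicate 1 or without 2-week replicate 1, and to 2 with median scaling. The methods' test also called none of the 9 and put 2 of them under 0.05.

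**Figure D1:**
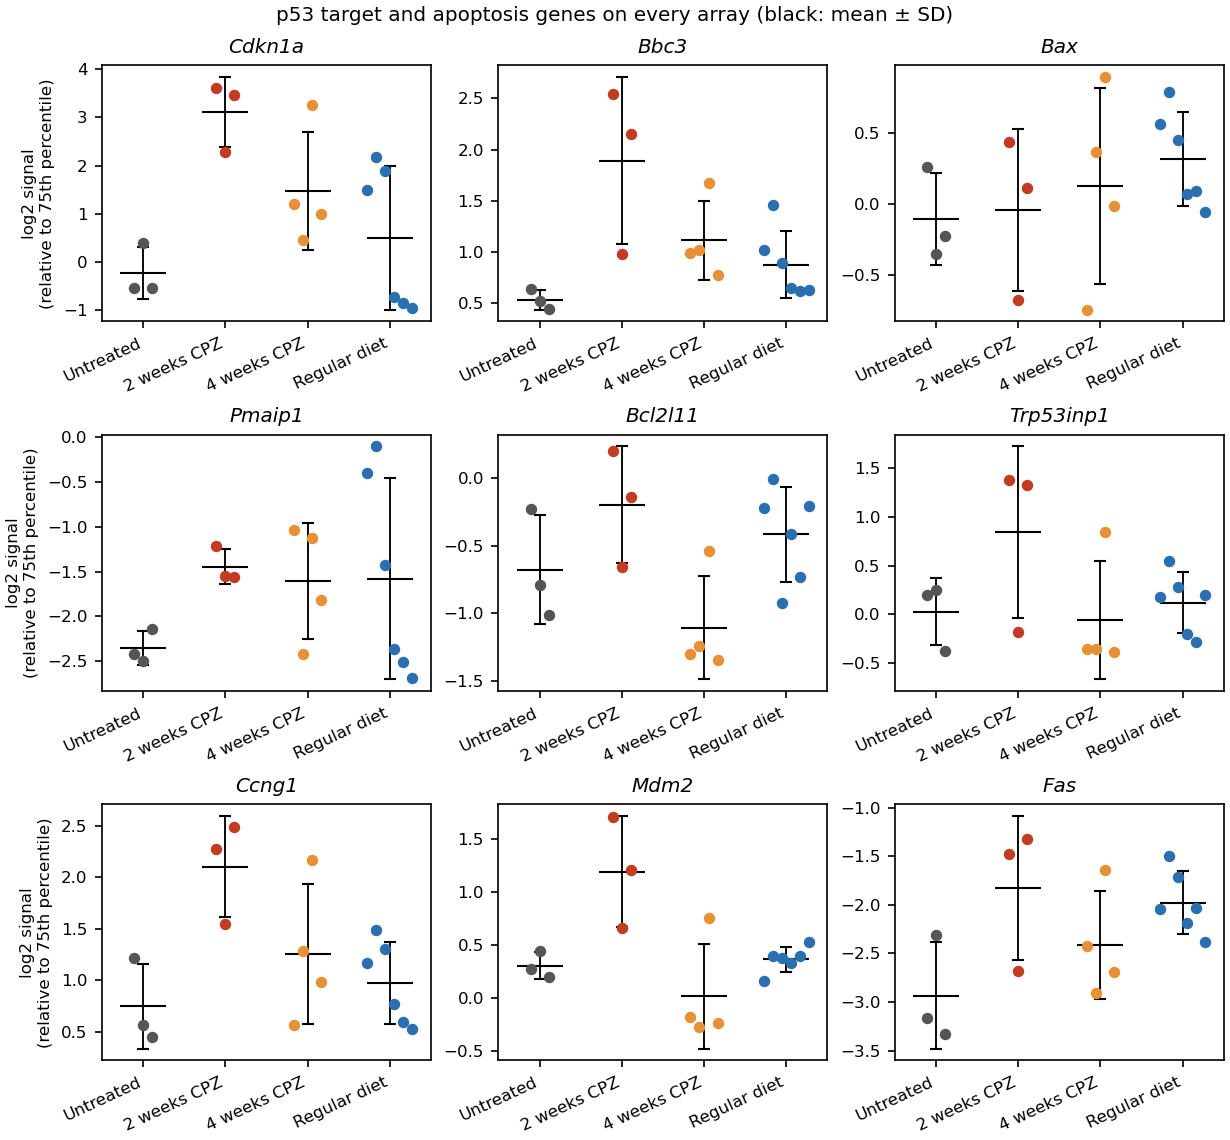
Log2 signal relative to the 75th percentile of the array (vertical axis) of the 9 genes in untreated, 2-week CPZ, 4-week CPZ and regular-diet CC. Each point is 1 array, and the black bar is the mean ± SD of the group. For Cdkn1a the 3 points at 2 weeks lie between 2.28 and 3.61, all above the 3 untreated points between -0.55 and 0.39.

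Cdkn1a, which encodes the cyclin-dependent kinase inhibitor p21, had the greatest difference of the 9 genes. Its log2 signal was -0.55, 0.39 and -0.55 in untreated CC and 3.61, 2.28 and 3.46 after 2 weeks of CPZ. Every 2-week array was above every untreated array, and replicate 2 was the lowest of the 2-week arrays. Replicate 2 was the lowest 2-week array for 8 of the 9 genes, and it lay on slide 4, while replicates 1 and 3 lay on slide 1. Slide 4 held no untreated array, and the part of the slide in this was not tested. The difference was 3.35 ± 0.68 on the log2 scale (SE), or 10.2-fold, with an adjusted p of 0.0896 by limma (unadjusted p = 0.000793), so it missed the threshold. The arrays lay on 4 slides, and with the slide as a fixed block the difference was 4.00 (adjusted p = 0.0465) and as a random block 3.58 (adjusted p = 0.0327), both past the threshold. On slide 1, the only slide with both groups, the 2 arrays of 2-week CC were 4.08 above the untreated array. Leaving out 4-week replicate 3, which is in neither of these groups but in the same fit, also gave a call (adjusted p = 0.0373). Cdkn1a was not called in the other fits that left out 1 array (adjusted p up to 0.313). Nor was it called with the replicate block (adjusted p = 0.307), by the methods' test (0.246) or in the fit on all 16 arrays (0.215).

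After 4 weeks of CPZ the Cdkn1a signal was 1.19, 0.45, 3.26 and 0.99. All 4 arrays were again above every untreated array, and replicate 3 stood more than 2 log2 units above the other 3. The difference from untreated was 1.71 ± 0.64 (SE; adjusted p = 0.374, limma), 1.12 without replicate 3, and 2.36 with the slide as a fixed block (adjusted p = 0.0242). Within slides, where 1 array of each group could be compared, it was 2.87 on slide 2 and 1.74 on slide 3. In the regular-diet group the signal ran from -0.97 to 2.17 with a median of 0.38, so that its arrays reached both below the untreated arrays and into the range of the 4-week arrays. The difference of that group from untreated was 0.73 ± 0.79 (SE; adjusted p = 0.682), and 0.40 without regular-diet replicate 2 or 0.46 without replicate 3.

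Ccng1 encodes cyclin G1, an atypical cyclin that acts with a phosphatase on the p53 pathway. Its signal was 1.22, 0.57 and 0.45 in untreated CC and 2.28, 1.54 and 2.48 after 2 weeks of CPZ. The groups did not overlap. The difference was 1.36 ± 0.43 (SE; adjusted p = 0.254, limma), and the second probe gave 1.56 ± 0.38 (adjusted p = 0.137). After 4 weeks the signal was 0.57, 1.29, 2.17 and 0.98, which overlapped the untreated range, with a difference of 0.50 ± 0.40 by the first probe and 0.92 ± 0.36 by the second (adjusted p = 0.784 and 0.397). Without 4-week replicate 3 the difference by the first probe was 0.20.

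Mdm2, the ubiquitin ligase that marks p53 for degradation, had a signal of 0.28, 0.44 and 0.20 in untreated CC. It was 1.71, 0.66 and 1.20 after 2 weeks of CPZ, again above every untreated array. At 4 weeks 3 of the 4 arrays were below every untreated array (-0.18, -0.27 and -0.24), and replicate 3 was above them at 0.76. The 2-week difference was 0.89 ± 0.34 (SE; adjusted p = 0.41) and the second probe gave 0.93 ± 0.39. The 4-week difference was -0.29 ± 0.32 (adjusted p = 0.853), and -0.54 without replicate 3 or -0.19 without replicate 2. The second probe, well above background on every array, went the other way at 4 weeks, at 0.10 ± 0.37 (adjusted p = 0.952). By that probe 3 of the 4-week arrays (-0.41, -0.67 and -0.66) lay above every untreated array (-1.11 to -0.79), and replicate 2 lay below them at -1.57. In the regular-diet group the signal of Mdm2 ran from 0.16 to 0.53 with a median of 0.39, close to the untreated arrays.

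Trp53inp1 encodes a stress-induced nuclear protein that promotes p53 activity. Its signal was 0.20, 0.25 and -0.37 in untreated CC. After 2 weeks of CPZ it was 1.37 and 1.32 in replicates 1 and 3, and -0.18 in replicate 2, which lay within the untreated range. The difference was 0.81 ± 0.48 (SE; adjusted p = 0.76), and the second probe gave 0.90 ± 0.43 (adjusted p = 0.596). Without 2-week replicate 2 the difference by the first probe was 1.32. At 4 weeks the signal was near -0.35 in 3 arrays and 0.84 in replicate 3, with a difference of -0.09 ± 0.45 (adjusted p = 0.968), whose sign turned with the scaling and the slide block.

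Among the BH3-only genes, Bbc3 (PUMA) had the greatest difference after 2 weeks of CPZ. Its signal was 0.64, 0.52 and 0.44 in untreated CC, 2.55, 0.97 and 2.15 after 2 weeks, and 0.99, 1.01, 1.67 and 0.78 after 4 weeks. Every array of either CPZ time lay above every untreated array. The difference was 1.36 ± 0.39 (SE) at 2 weeks, or 2.57-fold (adjusted p = 0.202, limma), and 0.58 ± 0.36 at 4 weeks (adjusted p = 0.702). Within slides it was 1.72 on slide 1 at 2 weeks, and 1.15 on slide 2 and 0.55 on slide 3 at 4 weeks.

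Pmaip1 (NOXA) was a dimmer probe, at -2.43, -2.50 and -2.14 in untreated CC. It was at -1.22, -1.55 and -1.56 after 2 weeks of CPZ, with the tightest spread of the 9 genes at that time (SD 0.20). At 4 weeks it was -1.03, -2.42, -1.13 and -1.82, and 1 array (replicate 2) lay within the untreated range. The difference was 0.91 ± 0.35 (SE; adjusted p = 0.41) at 2 weeks and 0.75 ± 0.33 (adjusted p = 0.478) at 4 weeks. With normexp background correction the differences were 0.27 and 0.26.

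Bcl2l11 (BIM) had a signal of -0.23, -0.79 and -1.01 in untreated CC and 0.20, -0.65 and -0.14 after 2 weeks of CPZ, and these groups overlapped. At 4 weeks it was -1.30, -1.24 and -1.34 in 3 arrays, below every untreated array, and -0.54 in replicate 3. The difference was 0.48 ± 0.32 (SE; adjusted p = 0.824) at 2 weeks and -0.43 ± 0.30 (adjusted p = 0.747) at 4 weeks. The 2-week value was 0.28 without 2-week replicate 1 and 0.31 without untreated replicate 3, and the 4-week value was -0.21 without untreated replicate 1. A second and much dimmer probe was well above background on all 3 of the 2-week arrays, on no untreated and no 4-week array, and on 4 of the 6 regular-diet arrays. This probe passed the filter only through the 2-week group, so a higher 2-week value follows from the filter and is given as a description. By that probe Bcl2l11 was at least 1.42-fold higher after 2 weeks than in untreated CC (adjusted p = 0.423 for the fitted difference, not the bound). For the bound, the 2-week mean was set against the lowest signal well above background on each untreated array. Where the signal of the probe was higher than that, it was used instead.

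Bax, the effector that forms pores in the outer mitochondrial membrane, showed the smallest difference of the 9 genes at 2 weeks. Its signal was 0.26, -0.35 and -0.23 in untreated CC, 0.43, -0.67 and 0.11 after 2 weeks of CPZ and -0.74, 0.36, 0.89 and -0.01 after 4 weeks. Both CPZ groups spanned the whole untreated range. The difference was 0.06 ± 0.43 (SE) at 2 weeks, with a 95% confidence interval from -0.91 to 1.03, and 0.23 ± 0.40 at 4 weeks, from -0.68 to 1.14. The 2-week interval holds differences of nearly 2-fold in either direction.

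Fas, the death receptor, had a signal of -3.16, -2.31 and -3.33 in untreated CC and -1.48, -2.68 and -1.32 after 2 weeks of CPZ. Replicate 2 of the 2-week group lay within the untreated range and the other 2 arrays above it. The difference was 1.11 ± 0.46 (SE; adjusted p = 0.479) at 2 weeks and 0.52 ± 0.43 (adjusted p = 0.799) at 4 weeks. With normexp the differences of Fas were 0.28 and 0.03. The 4-week value was 0.26 without 4-week replicate 3, 0.32 without untreated replicate 3 and 0.83 without untreated replicate 2. Fas was the one gene of the 9 whose regular-diet arrays differed from untreated at an unadjusted p under 0.05. They ran from -2.38 to -1.50 with a median of -2.04, and the difference was 0.96 ± 0.35 (SE; adjusted p = 0.328). With normexp that difference was 0.05, and with normexp or median scaling none of the 9 genes passed an unadjusted p of 0.05 in this comparison.

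**Figure D2:**
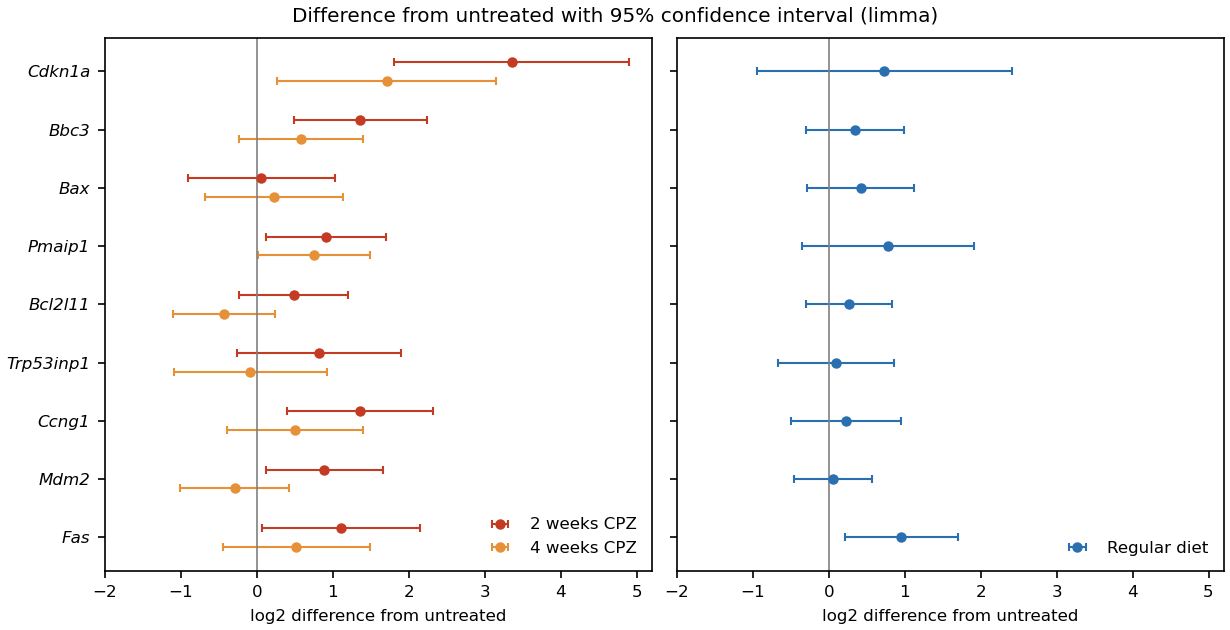
Log2 difference from untreated CC (horizontal axis) of the 9 genes, with the 95% confidence interval by limma. The left panel shows 2 and 4 weeks of CPZ and the right panel regular diet, and the interval of Cdkn1a at 2 weeks runs from 1.81 to 4.89.

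After 4 weeks of CPZ none of the 9 genes was called either, where 0.167% of all genes were called (34 genes). Of the 9, 6 were above untreated, and the median difference was 0.50 against -0.04 over all genes (0.20 against -0.08 with normexp). At an unadjusted p under 0.05, 2 were higher (Cdkn1a and Pmaip1) and none was lower, against 5.19% of all genes that were higher and 4.84% that were lower. The 4-week arrays were all above the untreated arrays for 2 genes, Cdkn1a and Bbc3, against 5.27% of all genes. The count of 2 fell to 0 without untreated replicate 1 or 3 and in the fit on all 16 arrays, to 1 without untreated replicate 2, 2-week replicate 1 or 3, or 4-week replicate 1, 3 or 4, and was 5 with the slide as a fixed block. Replicate 3 was the highest 4-week array for 8 of the 9 genes, and over all genes tested it was the highest for 28.1%.

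The 2 CPZ times were compared directly in the same fit. None of the 9 genes was called, as were 0.0147% of all genes. At 4 weeks 8 of the 9 were below their 2-week level, all but Bax, with a median difference of -0.85 against -0.02 over all genes. At an unadjusted p under 0.05 none was higher, against 4.92% of all genes, and 3 were lower, against 6.37%. These were Mdm2 (-1.18 ± 0.32, adjusted p = 0.339), Cdkn1a (-1.64 ± 0.64, adjusted p = 0.454) and Bcl2l11 (-0.91 ± 0.30, adjusted p = 0.411). The 2 groups overlapped for all 3, since 4-week replicate 3 lay within the 2-week range of each. With the slide as a fixed block the difference was -1.03 for Mdm2, -1.64 for Cdkn1a and -0.51 for Bcl2l11. The differences from untreated at 2 and at 4 weeks share the untreated arrays, and are given side by side for that reason.

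The 6 regular-diet arrays were fitted with the other groups on all 16 arrays. Against untreated CC none of the 9 genes was called, as were 0.866% of all genes, and 1 of the 9 (Fas) was higher at an unadjusted p under 0.05, against 6.28% of all genes. All 9 differences were above 0 with a median of 0.34, and that of all genes was -0.01. With median scaling those of Trp53inp1 and Mdm2 were below 0 (-0.09 and -0.12), and the medians were 0.16 and -0.19. With normexp the medians were 0.16 and -0.16. Pmaip1 had the widest range after Cdkn1a, from -2.69 to -0.10 with a median of -1.89. Against 4 weeks of CPZ none was called, as were 0.00486% of all genes, and 1 of the 9 was higher at an unadjusted p under 0.05, against 15.5% of all genes. That gene was Bcl2l11, at 0.69 ± 0.24 (SE; adjusted p = 0.124), with regular-diet arrays from -0.93 to 0.00 and a median of -0.32. With median scaling none of the 9 passed an unadjusted p of 0.05 here, and the median difference of the 9 turned from 0.18 to -0.12. With normexp the difference of Bcl2l11 was 0.39.

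Set in order of the group means, the 2-week group was the highest for 8 of the 9 genes, and the regular-diet group for Bax. The untreated group was the lowest for 6 genes, and the 4-week group for Mdm2, Trp53inp1 and Bcl2l11. By the second probes of Mdm2 and Bcl2l11 the untreated group was the lowest, though that of Bcl2l11 measured no untreated and no 4-week array well above background. For Cdkn1a the order was 2 weeks, 4 weeks, regular diet and untreated, at means of 3.12 ± 0.73, 1.47 ± 1.23, 0.50 ± 1.50 and -0.24 ± 0.54 (SD, n = 3, 4, 6 and 3). Each of those neighbours overlapped. For Bax all 4 means lay between -0.10 and 0.32, and every pair of groups overlapped.

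Across the 16 arrays the signals of the 9 genes were positively correlated in all 36 pairs, with Pearson's r from 0.151 to 0.897 and a median of 0.558. The closest pair was Bbc3 and Ccng1. These arrays share the 4 groups, so the values are a description. The genes whose signal was most like that of Cdkn1a were Eda2r (r = 0.957, well above background on only 8 of the 16 arrays), which encodes a death receptor of the TNF receptor family and is itself a p53 target, Slc3a2 (0.923), a subunit of amino acid transporters, and Moxd1 (0.922). Those most like Bbc3 were Gadd45a (0.955), a growth arrest gene, Ppp1r15a (0.928), a phosphatase subunit of the stress response, and Sox21 (0.924). Those most like Ccng1 were Ifrd1 (0.932), Nfil3 (0.929) and Sox21 (0.924). For Bax they were Cryzl2 (0.959), Cyb5r3 (0.945) and 1810024B03Rik (0.941). For the other 5 genes the closest 3 had r from 0.895 to 0.938.

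The gene that encodes p53 itself, Trp53, was not higher under CPZ. Its signal was 2.10, 1.78 and 1.51 in untreated CC, 1.22, 1.60 and 1.43 after 2 weeks of CPZ and 1.15, 1.87, 1.42 and 1.30 after 4 weeks. The difference was -0.38 (adjusted p = 0.807, limma) and -0.36 respectively. Of 10 tested genes of p53 and its regulators, none was higher at an unadjusted p under 0.05 at either CPZ time, and Hipk2, a kinase that phosphorylates p53, was lower at both, by a log2 difference of -1.36 (adjusted p = 0.0884) and -1.32 (adjusted p = 0.0859), and with normexp by -0.79 and -0.80. With the slide as a random block Hipk2 passed the threshold at both times (-1.39, adjusted p = 0.0449, and -1.26, adjusted p = 0.0443), and as a fixed block at neither (-1.47, adjusted p = 0.100, and -1.16, adjusted p = 0.120). The median of that list was 0.04 at 2 weeks and -0.22 at 4 weeks. On regular diet against untreated CC 2 of the 10 were lower at an unadjusted p under 0.05 and none was higher. These were Trp53 (-0.45, adjusted p = 0.397) and Hipk2 (-0.94, adjusted p = 0.317), and the median of the list was -0.07.

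Of 26 other p53 targets, 25 were tested. After 2 weeks of CPZ 5 of them were higher at an unadjusted p under 0.05, 1 was lower (Plk3) and none was called, and their median was 0.14 against 0.05 over all genes. The groups did not overlap for 10 of the 25, with 7 higher, against 8.12% of all genes, and 3 lower, against 8.66%. The 5 genes stand against the 4.48% of all genes that were higher at that p, and were Eda2r, Gadd45a, Tnfrsf10b, Aen and Sesn2. Of these Eda2r and Tnfrsf10b passed the filter on dim probes only through the 2-week group, so their direction follows from the filter and their place in these counts supports nothing. Gadd45a was -0.17, -0.48 and -0.23 in untreated CC and 2.01, 0.31 and 1.20 at 2 weeks (a difference of 1.47, adjusted p = 0.283). Aen, an apoptosis-enhancing nuclease, differed by 1.11 (adjusted p = 0.373) and Sesn2, a stress-inducible regulator of metabolism, by 0.63 (adjusted p = 0.494). By its brightest tested probe Eda2r was not well above background on any untreated array and was on all 3 of the 2-week arrays. There it was at least 5.52-fold higher (adjusted p = 0.141 for the fitted difference, not the bound). With normexp the fitted log2 difference of Eda2r was 0.44, less than that bound. Other probes of Eda2r, each well above background on 2 of the 3 2-week arrays, gave bounds of 1.33-fold and 1.92-fold. The brightest tested probe of Tnfrsf10b, the mouse TRAIL receptor, was measured on all 3 of the 2-week arrays and on no untreated array. By it Tnfrsf10b was at least 1.58-fold higher (adjusted p = 0.202 for the fitted difference), a direction that turned with normexp background correction. Other probes of Tnfrsf10b, each well above background on 2 of the 3 2-week arrays, gave bounds of 1.17-fold and 1.86-fold. The log2 difference of Zmat3 and of Sesn1 was 0.25, that of Btg2 0.02, that of Perp 0.32 and that of Apaf1 0.14. None of these had an unadjusted p under 0.05. Plk3 differed by -0.55 at 2 weeks (adjusted p = 0.350) and by -0.82 at 4 weeks (adjusted p = 0.111). Of the 25, 2 were higher and 1 was lower after 4 weeks at an unadjusted p under 0.05, with a median of 0.08. On regular diet none was higher than untreated at that p and 1 was lower, with a median of -0.001.

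The other parts of the apoptosis machinery were read by lists of the BCL-2 family, the caspases and the death receptors. Among pro-survival genes, Bcl2 was 0.71, 0.86 and 0.53 in untreated CC and 1.54, 1.44 and 1.45 after 2 weeks of CPZ, with no overlap and a difference of 0.78 (adjusted p = 0.164). Bcl2l1 (0.08) and Mcl1 (0.42) did not pass an unadjusted p of 0.05. Bcl2l2, also pro-survival and named after its values were seen, was below every untreated array on all arrays of each other group, with differences of -0.35 at 2 weeks, -0.38 at 4 weeks and -0.48 on regular diet (adjusted p = 0.706, 0.529 and 0.331). Bcl2a1b was higher by 2.94 at 2 weeks and 3.30 at 4 weeks, and rose in the regular-diet group by 3.94, where it was called (adjusted p = 0.0239) and stayed called under 19 of 28 alternatives, the lost calls including the fits without untreated replicate 1, 2 or 3 (4.33, 3.77 and 3.71) or regular-diet replicate 1 (3.60), and the fit with normexp (2.56). It is one of several near-identical Bcl2a1 copies, which this probe may not tell apart. None of the 6 tested pro-apoptotic genes of the BCL-2 family outside the 9 (Bak1, Bid, Bmf, Hrk, Bnip3 and Bnip3l) passed an unadjusted p of 0.05 at either CPZ time. On regular diet Bak1 was higher than in untreated CC by 0.74 (adjusted p = 0.425), and against 4 weeks of CPZ Bmf was higher by 1.19 (adjusted p = 0.113) and Hrk lower by a difference of -0.79 (adjusted p = 0.164), all at an unadjusted p under 0.05. Casp9, the initiator caspase of the mitochondrial pathway, differed by -0.11 at 2 weeks. Birc3, an inhibitor of apoptosis protein, rose by 1.19 in the regular-diet group (adjusted p = 0.0453), a call that was lost under 21 of 28 alternatives. Of these 12 left out 1 array (untreated replicate 1, 2 or 3, 2-week replicate 1 or 3, any 4-week replicate, or regular-diet replicate 1, 2 or 4), with differences of 1.05 to 1.30 and adjusted p up to 0.219. With normexp the difference was 0.08. Among death receptor genes Tnfrsf1a, the TNF receptor, was 0.63, -0.03 and -0.28 in untreated CC and 2.23, 0.86 and 1.83 at 2 weeks (a difference of 1.54, adjusted p = 0.195). It differed by 1.25 at 4 weeks (adjusted p = 0.275) and by 1.80 on regular diet (adjusted p = 0.106), with no overlap with untreated in any of the 3 groups. Cflar, an inhibitor of death receptor signalling, differed by 0.02, and Fasl was not well above background often enough to be tested.

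**Figure D3:**
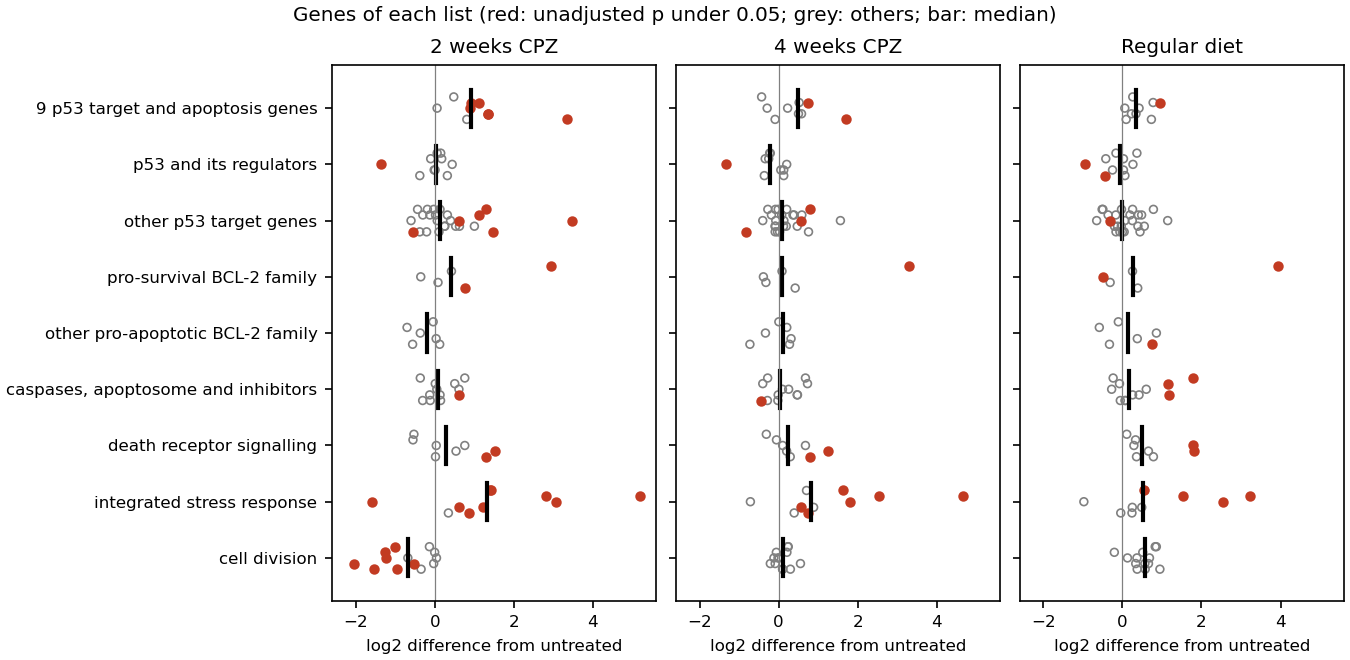
Log2 difference from untreated CC (horizontal axis) of each tested gene in 9 lists (vertical axis), for 2 weeks of CPZ, 4 weeks of CPZ and regular diet. Red points have an unadjusted p under 0.05, grey circles do not, and the black bar is the median of the list, which at 2 weeks is 0.91 for the 9 genes and 0.14 for the other p53 targets.

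The tissue carried the markers of CC, as all 11 oligodendrocyte markers on the array were well above background on every untreated array. They were lower at 2 weeks of CPZ at an unadjusted p under 0.05 for 11 of 11 genes, with a median of -3.30, and at 4 weeks for 10 of 11, with a median of -2.75. The microglia list had a median of 0.77 at 2 weeks, 1.57 at 4 weeks and 2.12 on regular diet. In bulk tissue fewer cells of a type and less RNA per cell cannot be told apart. The summed oligodendrocyte signal, in multiples of the 75th percentile, was 629 to 1340 in untreated CC, 32.8 to 274 at 2 weeks, 44.6 to 378 at 4 weeks and 99.0 to 1270 on regular diet. That of the microglia list was 34.8 to 73.8, 57.1 to 135, 91.2 to 232 and 106 to 1070. Choroid plexus markers varied widely within every group (0.941 to 43.4 at 4 weeks), with the highest value in 4-week replicate 3, the array on which 8 of the 9 genes were also highest in their group. The part of these cell types in the differences of the 9 genes was not tested.

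**Figure D4:**
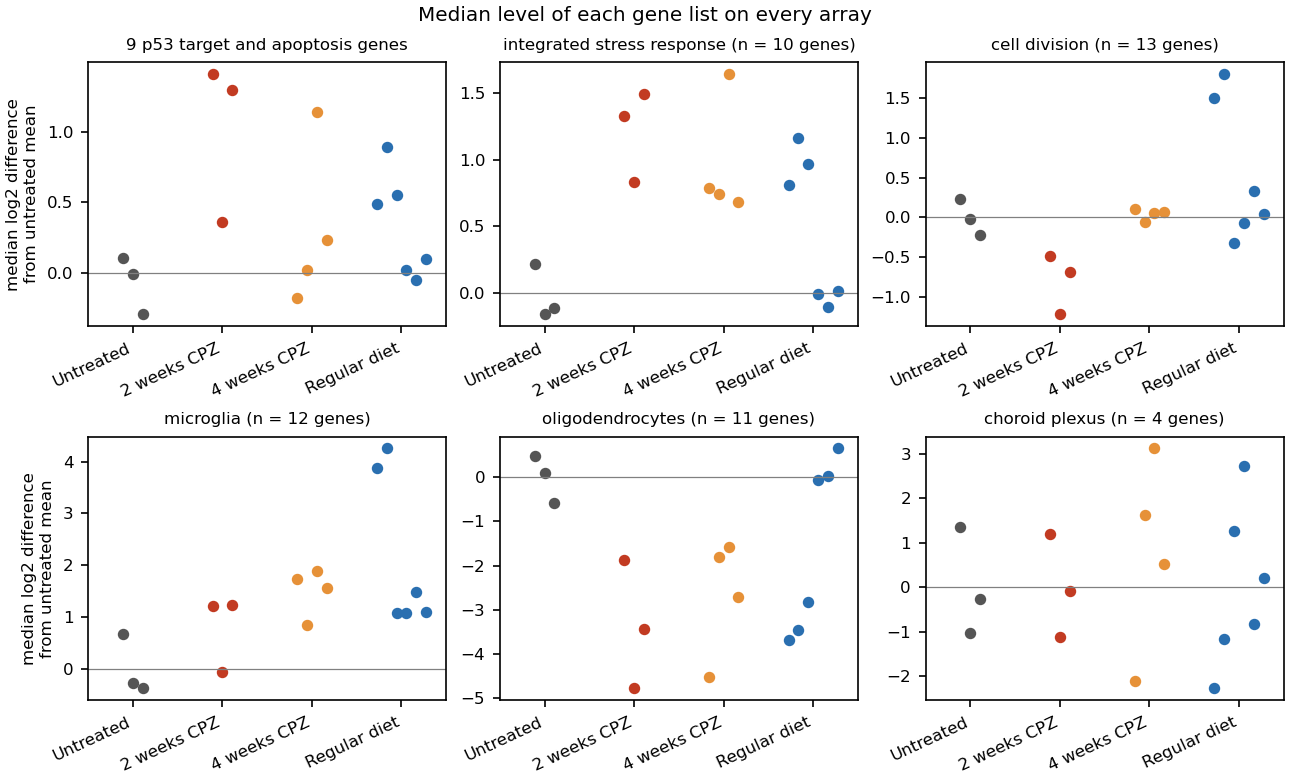
Median log2 difference from the untreated mean (vertical axis) over the genes of each list, with 1 point for each array, by group. For the 9 p53 target and apoptosis genes the 2-week arrays lie at 1.41, 0.36 and 1.30, and the untreated arrays between -0.29 and 0.10.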

How the data were processed

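RNA of punched-out CC from 16 samples was labelled in 1 colour and hybridised to Agilent 4x44K mouse arrays on 4 slides, all scanned on 1 day. The authors deposited scanner files from Agilent Feature Extraction (version 11.0.1.1 in the files), whose spot intensity is background-subtracted. They also deposited a table of log2 values, in which 99.95% of probes have a median of 0 over the untreated columns. Scanner files and table columns were matched by their values (best r 1.0, next at most 0.883). Of the 16 columns, 14 matched an array recorded under another sample, 13 of them under another group. Groups were taken from the table's columns, a departure from the recorded assignment, which is given as an alternative. The members and gene lists were chosen with earlier results of these data known, as was that assignment.

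Control and outlier spots were left out, spots of a probe were averaged, and log2 intensity was scaled to the 75th percentile of each array with no pseudocount. Between 57.3 and 72.2% of probes were well above background. Tested probes were those that all arrays of 1 or more groups measured well above background. Probe accessions were named through RefSeq genes (GRCm38.p6), which matched 27479 of 41174 probes (66.7%). CPZ groups and untreated were fitted on 10 arrays (20366 genes, 7 residual degrees of freedom) and regular diet on all 16 (20559 genes) with limma 3.58.1 in R 4.3.3. The brightest tested probe stands for its gene, and unnamed transcripts are counted by accession. A call needed an adjusted p under 0.05 and at least 2-fold. On simulated data over 27438 probes, 50 of 50 probes changed by 4 on the log2 scale were recovered. That change is greater than the 3.35 of Cdkn1a at 2 weeks, so it gives no measure of recovery at the size of the 9 genes' differences. All 9 members are named, with every tested probe, and of the other lists the genes fixed by name, those called, and a few chosen after their values were seen (Aen, Hipk2, Plk3, Bcl2l2, Bnip3, Bnip3l, Plk1, Bub1 and Pcna). 1 gene fixed by name is not reported here. The methods' test is a one-way ANOVA with Tukey's test.

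Alternatives were quantile normalization, median scaling, normexp (offset 50, on median signals, since mean signals are not in the files), no filter and a stricter filter, the authors' log2 table, the recorded assignment, the slide as a fixed or random block (statmod 1.5.0), the replicate number as a block, other sets of arrays, the methods' test, and each array left out in turn.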

Additional observations from a re-analysis of the deposited data

Results flagged for a closer look

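Of 18 sets of values examined (9 genes in the 4-week and regular-diet groups), 3 had 1 array far from the others, by a gap to the nearest array over 0.829 of the range for 4 arrays. Chance flags about 1 in 20 such groups. In all 3 it was the highest, 4-week replicate 3. Trp53inp1 was 0.84 on that array, and the next array was at -0.35. Mdm2 was 0.76, and the next array was at -0.18. Bcl2l11 was -0.54, and the next array was at -1.24. Over the 20366 genes tested, 3.83% had an array that far from the others at 4 weeks, and for 1.14% it was replicate 3 as the highest. The same array had the highest choroid plexus level of its group, and the part of that in the 3 values was not tested.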

How the results depend on the processing

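The number of the 9 genes called was 0 in all 5 comparisons. It stayed 0 under every alternative, except that Cdkn1a alone was called at 2 weeks with the slide as a fixed block (1 gene), with the slide as a random block (1 gene) and in the fits that left out 1 array each (0 to 1), and at 4 weeks with the slide as a fixed block (1 gene). The number higher at an unadjusted p under 0.05 at 2 weeks (6) was 2 with median scaling, 2 by the methods' test and 0 under the recorded assignment, and ran from 3 to 7 when 1 array was left out. At 4 weeks (2) it was 1 with normexp, 0 under the recorded assignment, 5 with the slide as a fixed block, 0 in the fit on 16 arrays and 0 by the methods' test, and ran from 0 to 2 when 1 array was left out. Median scaling moved the median of all genes at 2 weeks from 0.05 to -0.12 and that of the 9 genes from 0.91 to 0.75.

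Directions turned mainly under the recorded assignment. At 2 weeks it gave Cdkn1a -1.66, Bbc3 -0.80, Pmaip1 -0.32, Bcl2l11 -0.33, Trp53inp1 -0.69, Ccng1 -0.84, Mdm2 -0.53 and Fas -0.08, and of other genes Trib3 -1.27, Gadd45a -0.64, Aen -0.49, Sesn2 -0.45, Hipk2 0.093, Bcl2 -0.29, Tnfrsf1a -0.045, Atf3 -0.49, Mki67 1.09 and Top2a 0.73. At 4 weeks it gave Cdkn1a -1.89, Bbc3 -1.02, Bax -0.19, Pmaip1 -0.078, Ccng1 -1.22, Fas -0.31, Trib3 -2.12 and Hipk2 0.13. For regular diet against untreated it gave Cdkn1a -0.79, Bbc3 -0.84, Bax -0.28, Bcl2l11 -0.89, Trp53inp1 -1.10, Ccng1 -0.85, Mdm2 -0.98 and Fas -0.42, and for Bcl2l11 against 4 weeks -0.31.

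Other directions turned as well. Bax at 2 weeks was -0.10 with median scaling, -0.18 with the slide as a fixed block, -0.009 as a random block, and -0.18 to 0.38 when 1 array was left out. Bax at 4 weeks ran from -0.027 to 0.518 when 1 array was left out. Trp53inp1 at 4 weeks was 0.03 with median scaling, 0.47 with the slide as a fixed block, 0.14 as a random block and 0.02 with the replicate block, and -0.39 to 0.023 when 1 array was left out. Mdm2 at 4 weeks was 0.044 with the slide as a fixed block. On regular diet Trp53inp1 was -0.087 with median scaling and -0.11 to 0.20 when 1 array was left out, and Mdm2 was -0.12 with median scaling. Tnfrsf10b at 2 weeks was -0.16 with normexp, a fitted value against a group not well above background. Normexp lowered 2-week differences by over 1.5 times without turning them to 0.27 for Pmaip1 and 0.28 for Fas. With the slide as a fixed block the 4-week difference was 1.05 for Bbc3, 0.83 for Ccng1, 1.00 for Fas, 0.49 for Bax and -0.11 for Bcl2l11, which was -0.28 with normexp. The causes were not tested.

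Over all genes the number called was 43 at 2 weeks and 0 to 254 under the alternatives, 34 and 0 to 394 at 4 weeks, 3 and 0 to 55 between the CPZ times, 178 and 0 to 263 for regular diet against untreated, and 1 and 0 to 1434 for regular diet against 4 weeks. The replicate numbers do not pair the arrays (correlations of deviations from -0.809 to 0.207), and with the replicate block 0 of the 9 genes was called and 4 were higher at an unadjusted p under 0.05 at 2 weeks. The block moved Cdkn1a on regular diet from 0.73 to 1.84.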

Other observations

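The integrated stress response, a programme run by the factors ATF4 and CHOP (Ddit3) that shares the target Sesn2 with p53, was the list with the highest median under CPZ among the 8 pathway lists described. At 2 weeks 8 of its 10 genes were higher at an unadjusted p under 0.05, with a median of 1.31, and 1 was lower (Ddit4, -1.60). Trib3, a pseudokinase induced by this pathway, rose by 5.19 at 2 weeks (adjusted p = 0.0300, limma) and was called. Its signal was -3.23, -3.52 and -3.33 in untreated CC and 2.08, 0.68 and 2.73 at 2 weeks. At 4 weeks it was 0.68, 0.86, 2.73 and 0.93, and it was called there too, with a difference of 4.66 (adjusted p = 0.0391). The call was kept under 12 of 23 alternatives at 2 weeks and 10 of 23 at 4 weeks. The 2-week call was lost without untreated replicate 1, 2 or 3, 2-week replicate 1 or 3, or 4-week replicate 4 (adjusted p up to 0.123). The 4-week call was lost without untreated replicate 1, 2 or 3, 2-week replicate 1 or 3, or 4-week replicate 1, 3 or 4 (adjusted p up to 0.184). With 1 array left out, the 2-week difference ran from 4.74 to 5.77. The 4-week difference then ran from 4.19 to 4.87. With normexp the differences were 3.18 at 2 weeks, still called (adjusted p = 0.0308), and 2.67 at 4 weeks, where the call was lost (adjusted p = 0.0556). The recorded assignment gave -1.27 and -2.12. Atf3 (3.07), Ddit3 (1.22), Atf4 (0.87) and Chac1 (1.40) were higher at 2 weeks without passing the adjusted threshold, and with normexp Atf3 was at 1.53. With the slide as a block Atf3 was called at 2 weeks (3.32, adjusted p = 0.0465, as a fixed block and 3.17, adjusted p = 0.0382, as a random one).

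Of 13 tested genes of cell division, 7 were lower at 2 weeks at an unadjusted p under 0.05, with a median of -0.68, and none was called. Plk1, Bub1 and Pcna, named after their values were seen, differed by -0.03, -0.001 and 0.05. Mki67 was -0.66, 0.33 and -0.21 in untreated CC and -0.98, -2.31 and -1.84 at 2 weeks, a difference of -1.53. Top2a differed by -2.03, with 2-week replicate 2 not well above background. Against the 2-week arrays, 6 of the 13 were higher at 4 weeks at an unadjusted p under 0.05, Mki67 by 1.83 and Top2a by 2.59. With normexp the 2-week differences were -0.90 for Mki67 and -0.67 for Top2a, and those between the CPZ times 1.13 and 0.79.

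The 6 regular-diet arrays spread into separate values for some genes, and since the labels do not give their time they are listed one by one without a comparison. In the order of the labels' replicate numbers, Cdkn1a was 1.50, 2.17, 1.89, -0.73, -0.86 and -0.97, and Pmaip1 was -0.39, -0.10, -1.42, -2.36, -2.51 and -2.69. Trib3 was 1.89, 2.54, 1.82, -2.28, -2.05 and -2.67. The median of the oligodendrocyte markers relative to untreated was -3.69, -3.45, -2.83, -0.06, 0.02 and 0.65, and that of the microglia markers 3.88, 4.25, 1.07, 1.08, 1.49 and 1.09. For Mdm2 the 6 arrays were 0.16, 0.39, 0.38, 0.33, 0.40 and 0.53.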
